A study of Mus musculus with 6 samples.

Results

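Egg-activation calcium handling genes were described in metaphase II (MII) mouse oocytes by RNA-seq. The 10 genes are Itpr1, Stim1, Orai1, Trpm7, Trpv3, Cacna1h, Atp2a2, Atp2b1, Camk2g and Ppp3ca. They were chosen by name from the 53700 Ensembl genes of the deposited table, which lists 60193 genes in all. All 10 were found, each once. Each of the 6 samples pooled 20 MII oocytes from 3 female ICR mice aged 42 to 45 weeks, an advanced reproductive age. All mice had received 5 IU of PMSG, a gonadotropin that drives follicle growth. In the IVM group (n = 3 pools), oocytes stripped of their cumulus cells were taken from the ovary 46 h later at the germinal vesicle stage and cultured in M16 medium for 12 h. In the IVO group (n = 3 pools), mice received 5 IU of hCG in place of ovary collection, and ovulated oocytes were taken from the oviduct 14 h later and freed of cumulus cells with hyaluronidase. The groups thus differ in culture, in contact with cumulus cells, in hCG and in time, which cannot be told apart. Young mice and oocytes at the GV stage were not analysed here.

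A fertilized mammalian egg responds with repeated rises in cytosolic calcium. The sperm brings in a phospholipase C that makes inositol trisphosphate (IP3), and IP3 opens receptor channels in the endoplasmic reticulum (ER). Pumps return calcium to the ER or push it out of the egg, and channels of the plasma membrane let calcium in so that the rises can go on. Calcium-bound calmodulin then switches on kinases and phosphatases, and CaMKII releases the egg from its metaphase arrest. Fully grown oocytes make almost no new RNA, so the transcripts of an MII oocyte are largely those stored earlier in growth.

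The values are FPKM, that is fragments per kilobase of transcript scaled to the size of the library, as deposited. Depth, worked out from the spacing of the lowest FPKM values, was 16.4 to 19.45 M fragments for the IVM pools and 17.9 to 18.2 M for the IVO pools. The inferred mean fragment length was 205 to 215 bases for IVM against 250 to 265 bases for IVO pools. Differences between IVO and IVM were tested with limma on the log2(FPKM + 1) scale for 18818 genes whose mean reached 1 FPKM, and p-values were adjusted over all of these by Benjamini-Hochberg. A gene was called a DEG at an adjusted p-value under 0.05 together with |log2FC| ≥ 1, where log2FC is IVO minus IVM and understates the change of low genes. Deposited FPKM summed to 1.83e+06 to 2.11e+06 in the IVM pools against 1.56e+06 to 1.64e+06 in the IVO pools. Over all tested genes the median log2FC was -0.30 on deposited FPKM and -0.03 with scaling to the same sum. It was -0.04 after median-ratio scaling, in which each library is divided by its median ratio to the mean library, so each tested member is given on both scales. FPKM is relative to the library, and less RNA per oocyte or fewer intact oocytes in a pool cannot be told apart from it.

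All 10 oocyte markers checked (among them Gdf9, Bmp15 and the zona pellucida genes) reached 1 FPKM. In 8 of them (7 with median-ratio scaling) all IVO pools were below all IVM pools, next to 32.6% of all tested genes (22.7%). On both scales 6 were DEGs lower in IVO, next to 17.9% (11.2%). Their summed FPKM was 9686 to 12463 for IVM against 7742 to 8285 for IVO pools. Of 14 cumulus and granulosa markers, 11 stayed under 1 FPKM in every sample and Amh was listed at 0 throughout, with a summed FPKM of 25.2 to 35.9 for IVM against 33.0 to 37.5 for IVO pools, carried mostly by Fshr and Cyp19a1. On deposited FPKM, 3 of the 14 were higher in every IVO than in every IVM sample, next to 9.62% of all tested genes. These were Has2, Ptx3 and Tnfaip6, genes of the expanding cumulus. None of the 3 passed 0.49 FPKM, and none was among the tested genes. Ptgs2, a further such gene, overlapped between the groups on deposited FPKM. It had 0.04, 0.19 and 0.06 FPKM in IVM against 0.50, 0.16 and 0.42 FPKM in IVO pools. With median-ratio scaling Has2, Ptx3, Tnfaip6, Ptgs2, Cyp19a1 and Kitl were all higher in every IVO sample, next to 21% of all tested genes. The 6 blood markers summed to 0 to 1.04 FPKM in IVM and 0.01 to 5.82 FPKM in IVO samples, and the 5 oviduct markers to 2.93 to 3.16 and 3.26 to 5.71 FPKM. The part of these markers in the results was not tested.

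Of the 10 members, 9 passed the filter on mean FPKM and were tested, while Orai1 was too low. Cacna1h was the only DEG, lower in IVO, against 17.9% of all tested genes that were DEGs in that direction and 18.5% in either direction. It passed the filter only through the IVM pools (mean 2.50 FPKM, against 0.410 FPKM in the IVO pools). On the adjusted p-value alone it was again the only member, against 21.5% of all tested genes lower and 1.87% higher in IVO. No member was a DEG higher in IVO, against 0.606% of all tested genes, and at an unadjusted p-value under 0.05 in limma 3 members were lower and 0 were higher, next to 31.4% and 5.56% of all tested genes. The median log2FC of the 9 tested members was -0.31 as deposited and -0.02 with median-ratio scaling, next to -0.30 and -0.04 over all tested genes. For 3 of the tested members (Stim1, Cacna1h and Atp2a2) all IVO pools read lower than all IVM pools, as they did for 32.6% of all tested genes. For 2 (Atp2b1 and Ppp3ca) all IVO pools read higher, as for 9.62% of all tested genes. With median-ratio scaling, 1 member lay below (Cacna1h, background 22.7%) and 4 lay above (Itpr1, Atp2b1, Camk2g and Ppp3ca, background 21%). On that scale no member passed both thresholds, next to 11.2% of all tested genes lower and 2.09% higher in IVO. Atp2b1 alone passed on the adjusted p-value (higher), next to 13% lower and 7.19% higher.

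**Figure D1:**
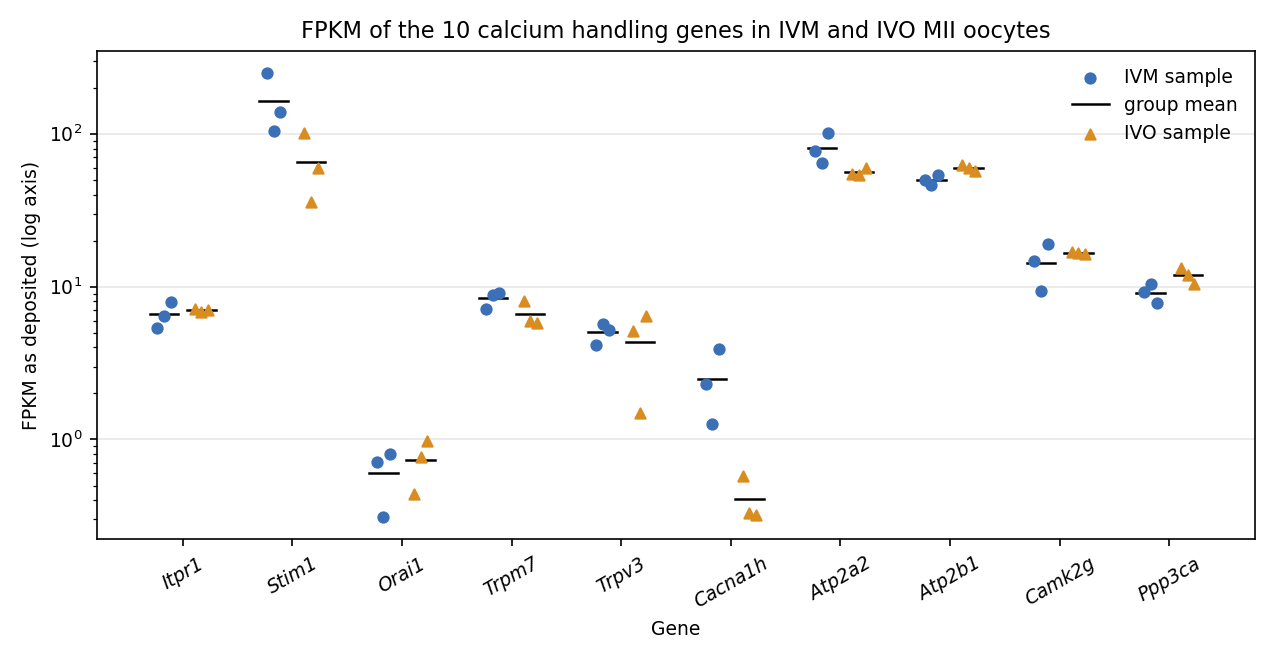
FPKM as deposited (log axis) of the 10 genes in each of the 3 IVM (circles) and 3 IVO (triangles) samples, with the group mean as a bar. Cacna1h shows the widest gap between the groups, with IVM pools at 1.26 to 3.93 FPKM against 0.32 to 0.58 FPKM for the IVO pools, while Itpr1 lies near 7 FPKM in both.

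Among the plasma membrane entry channels, Cacna1h was called lower in IVO on deposited FPKM with the filter, and no difference passed the test for Trpm7 or Trpv3. Cacna1h encodes the pore-forming subunit of the T-type channel CaV3.2, which opens on depolarization and helps fill the stores of the growing oocyte. The gene spans bases 25593259 to 25652764 of chromosome 17 in GRCm39, the build of all positions given here. The IVM pools measured 2.32, 1.26 and 3.93 FPKM, against 0.58, 0.33 and 0.32 FPKM for the IVO pools. All IVM pools were above all IVO pools, and the means of 2.50 ± 1.34 and 0.410 ± 0.147 FPKM (SD, n = 3 each) were 6.11-fold apart. Only the IVM pools lifted Cacna1h over the filter of 1 FPKM. In limma the log2FC reached -1.25 with a standard error of 0.34 and an adjusted p of 0.0374. About 197 to 601 fragments in IVM and 46 to 84 fragments in IVO samples stood behind these values, as rebuilt from the FPKM, the listed length and the inferred depth. The call was lost with median-ratio scaling, where the log2FC was -1.08 (adjusted p = 0.0519 from limma). It was also lost without a filter (adjusted p = 0.0633) and with the replicate number as a factor (adjusted p = 0.0698). Among the 6 fits that each left out a sample, only that without IVM replicate 2 kept it (adjusted p = 0.0259 to 0.0980). The opposite-strand gene Tpsg1, which shares 159 exon bases with Cacna1h, reached at most 0.08 FPKM.

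Trpm7 encodes a channel joined to a kinase domain, which passes magnesium as well as calcium. Located on chromosome 2 (bases 126633480 to 126718182), it measured 7.19, 8.87 and 9.03 FPKM across the IVM pools against 8.07, 5.92 and 5.78 FPKM across the IVO pools. The groups overlapped through the highest IVO sample. The log2FC was -0.31 (95% interval -0.82 to 0.20, adjusted p = 0.353 from limma), close to the median of all tested genes, and -0.02 with median-ratio scaling. A same-strand protein-coding annotation shares 387 exon bases with Trpm7 and was not analysed here. Trpv3 encodes the channel through which strontium, used to activate mouse eggs parthenogenetically, enters the MII egg. On chromosome 11 (bases 73158214 to 73191193), it measured 4.13, 5.70 and 5.23 FPKM across the IVM pools against 5.10, 1.48 and 6.45 FPKM across the IVO pools. A single low sample, IVO replicate 2, set the wide IVO spread, and the log2FC of -0.31 (95% interval -1.29 to 0.68, adjusted p = 0.641 from limma) was 0.17 without it. With median-ratio scaling of all samples the Trpv3 log2FC was -0.05. With quantile normalization the log2FC of both genes was positive, at 0.18 for Trpm7 and 0.16 for Trpv3.

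The genes of store-operated entry were far apart in level. Stim1 encodes the ER membrane protein that senses falling store calcium and gates ORAI channels. Situated on chromosome 7 (bases 101916979 to 102086526), it was the member with the highest mean FPKM. It measured 249.7, 104 and 138 FPKM across the IVM pools against 100.4, 35.5 and 59.8 FPKM across the IVO pools. Every IVM sample was above every IVO sample, though only just, since IVM replicate 2 and IVO replicate 1 nearly met. The means were 164 ± 76.2 and 65.2 ± 32.8 FPKM (SD, n = 3 each), a 2.51-fold difference. The log2FC of -1.34 (standard error 0.45) was the most negative of the members and did not pass the adjusted threshold (adjusted p = 0.0697 from limma). Of the 6 fits that each left out a pool, it did so only without IVO replicate 1 (log2FC -1.71, adjusted p = 0.0400), and in the other fits the adjusted p ran from 0.0838 to 0.193 and the log2FC to as little as -0.97 (without IVO replicate 2). With median-ratio scaling it was -1.02 (adjusted p = 0.131) and the groups overlapped. No exon of another annotated gene overlaps Stim1.

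Orai1 encodes the pore of the store-operated channel in the plasma membrane. The gene, on chromosome 5 (bases 123153043 to 123168535), measured 0.71, 0.31 and 0.80 FPKM across the IVM pools against 0.44, 0.77 and 0.98 FPKM across the IVO pools, the lowest of the members. These values stand on about 10 to 29 fragments per sample, and the groups overlapped. In the fit without a filter on low genes the log2FC was 0.11 (95% interval -0.36 to 0.57, adjusted p = 0.758 from limma). The opposite-strand lncRNA Gm2479 shares 86 exon bases with Orai1 and had 31.7 to 66.5 FPKM, and reads over the shared bases cannot be assigned by strand.

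For the release channel and the pumps no difference passed the adjusted threshold on deposited FPKM. Itpr1 encodes the type 1 IP3 receptor, the channel through which ER calcium leaves. On chromosome 6 (bases 108190048 to 108528070), it measured 5.35, 6.42 and 7.98 FPKM across the IVM pools against 7.13, 6.80 and 7.07 FPKM across the IVO pools. The IVO samples lay inside the range of the IVM samples. The log2FC was 0.09 (95% interval -0.41 to 0.59, adjusted p = 0.793 from limma), 0.38 with median-ratio scaling, and -0.03 without IVM replicate 1.

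Atp2a2 encodes SERCA2, the pump that refills the ER. The gene, on chromosome 5 (bases 122591575 to 122640903), measured 77.3, 64.5 and 100.5 FPKM across the IVM pools against 54.9, 53.8 and 59.8 FPKM across the IVO pools. All 3 IVO samples were below the IVM samples. In limma the log2FC came to -0.49 with a standard error of 0.21, an unadjusted p of 0.0498 and an adjusted p of 0.135, and to -0.17 with median-ratio scaling, where the groups overlapped. Anapc7, on the opposite strand, shares 112 exon bases with it and had 11.3 to 26 FPKM. With the length trend removed, Atp2a2 passed the p-value threshold but not the fold (log2FC -0.73, adjusted p = 0.0314 from limma). Atp2b1 encodes PMCA1, a pump that carries calcium out across the plasma membrane. Lying on chromosome 10 (bases 98750268 to 98862488), it measured 49.6, 46.2 and 53.7 FPKM across the IVM pools against 62.35, 59.95 and 56.7 FPKM across the IVO pools. All 3 IVO samples were above the IVM samples on both scales. The log2FC was 0.26 (95% interval -0.14 to 0.65, adjusted p = 0.314 from limma). With median-ratio scaling it was 0.58 (standard error 0.16, adjusted p = 0.0434 from limma), which passed the p-value threshold, as 7.19% of all tested genes did in this direction, but not the threshold on the fold.

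Among the calmodulin-dependent enzymes, Camk2g encodes the gamma subunit of CaMKII, the kinase that acts on the metaphase arrest of mouse eggs. On chromosome 14 (bases 20784942 to 20844541), it measured 14.8, 9.33 and 18.9 FPKM across the IVM pools against 16.9, 16.6 and 16.5 FPKM across the IVO pools. The 3 IVO samples were nearly equal, with a coefficient of variation of 1.5% next to 33.5% in IVM. The log2FC was 0.25 (95% interval -0.38 to 0.88, adjusted p = 0.542 from limma) and 0.56 (adjusted p = 0.134) with median-ratio scaling. The opposite-strand lncRNA Gm30108 shares 442 exon bases with Camk2g and had 64.7 to 75.5 FPKM, so the Camk2g values are uncertain where reads fall on shared bases. Ppp3ca encodes the alpha catalytic subunit of calcineurin, the calcium-dependent phosphatase. On chromosome 3 (bases 136375445 to 136643491), it measured 9.16, 10.4 and 7.82 FPKM across the IVM pools against 13.2, 12.0 and 10.5 FPKM across the IVO pools. The IVO samples were all above the IVM samples, by a small margin between the closest. The log2FC was 0.35 (95% interval -0.13 to 0.83, adjusted p = 0.259 from limma) and 0.65 (standard error 0.21, adjusted p = 0.0657) with median-ratio scaling.

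**Figure D2:**
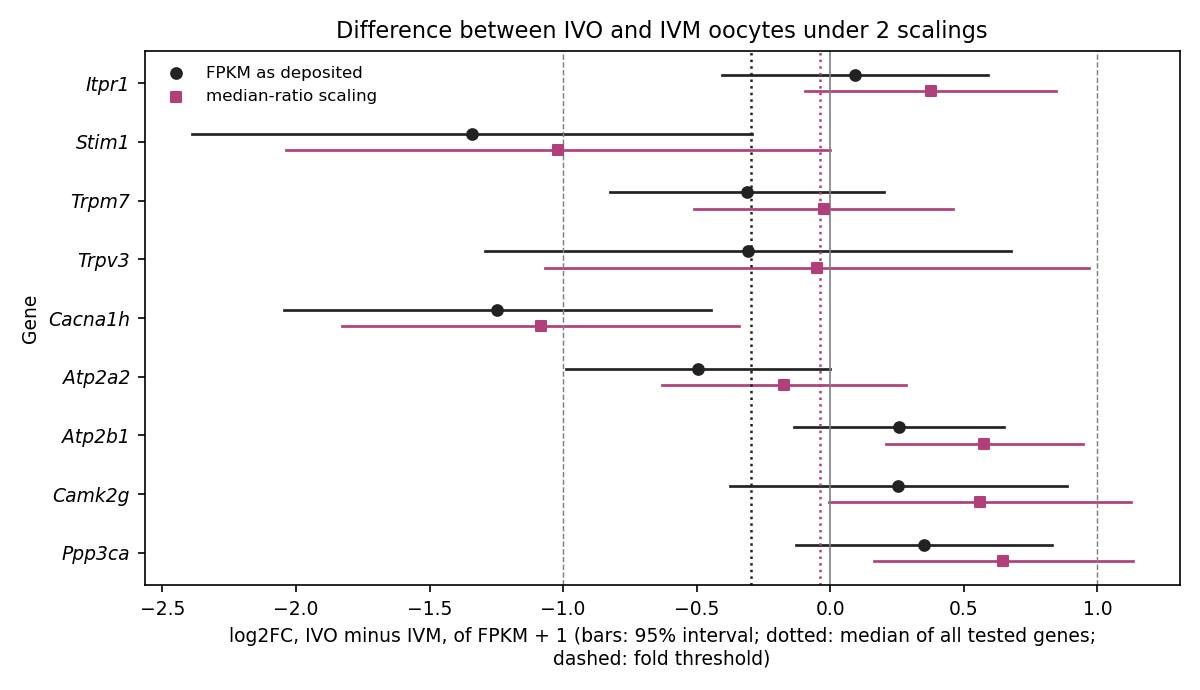
The log2FC (IVO minus IVM) of the 9 tested members on the log2(FPKM + 1) scale with 95% intervals, for the FPKM as deposited (black circles) and with median-ratio scaling (magenta squares). Dotted lines mark the median of all tested genes (-0.30 and -0.04), dashed lines the fold threshold of 1. Stim1, Cacna1h, Atp2a2 and, by a small margin, Trpv3 lie left of the respective median on both scales, while Itpr1, Atp2b1, Camk2g and Ppp3ca lie right of them.

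In order of mean FPKM over the 6 samples, the members ranked Stim1 (115), Atp2a2 (68.5), Atp2b1 (54.8), Camk2g (15.5), Ppp3ca (10.5), Trpm7 (7.48), Itpr1 (6.79), Trpv3 (4.68), Cacna1h (1.46) and Orai1 (0.668). FPKM is per transcript length, which allows this order, but isoforms were not resolved and the order depends on the listed lengths. These were 1937 bases for Camk2g and 2194 for Ppp3ca, whose annotated transcripts run to 5104 and 5225 bases. As rebuilt fragments per sample, Itpr1 (847 to 1469) and Trpm7 (715 to 1190) lay above Camk2g (314 to 624) and Ppp3ca (296 to 463). The single step at which all 6 samples of a member were above all 6 of the next was that from Atp2b1 to Camk2g. Within the IVM samples, Camk2g, Ppp3ca, Trpm7, Itpr1 and Trpv3 overlapped each with its neighbour. Within the IVO samples, Stim1 overlapped Atp2a2, Atp2a2 overlapped Atp2b1, Trpm7 overlapped Itpr1, and Cacna1h overlapped Orai1.

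Each member belongs to a family of related genes, and its share of the family's summed FPKM within a sample does not move with the scaling of the library. Itpr1 had a small share, 4.4% to 5.15% in IVM against 4.14% to 4.95% in IVO pools. The type 2 receptor Itpr2 measured 98.5, 139.5 and 153 FPKM across the IVM pools against 137, 151 and 164 FPKM across the IVO pools, and Itpr3 stayed at or under 0.12 FPKM. The Itpr1 and Itpr2 levels rest on listed lengths of 9870 and 8331 bases, and as rebuilt fragments Itpr1 still had only 4.89% to 6.06% of the family. Stim1 had 61.0% to 88.3% of the STIM pair in IVM and 42.9% to 67.1% in IVO samples. Stim2, the sensor of small store losses, had 32.9, 66.4 and 79.7 FPKM in IVM against 49.2, 47.3 and 35.4 FPKM in IVO pools, with a log2FC of -0.35 (adjusted p = 0.502 from limma).

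Several members made up nearly the whole of their family. Atp2a2 had at least 99.8% of the SERCA genes in every sample, Trpm7 88.9% to 96.4% of Trpm6 and Trpm7, Cacna1h 89.2% to 98% of the T-type channel genes, and Camk2g 93.5% to 98.1% of the CaMKII genes. Within these families no other gene passed 1 FPKM in any sample.

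In 4 of the 10 families the shares of the groups did not overlap, each higher in IVO, though none passed the permutation test given below. No such count was made over other gene families. Ppp3ca had 47.1%, 66.2% and 48.1% of the calcineurin catalytic genes in IVM and 75.6%, 81.9% and 76.5% in IVO samples, a difference of 24.2 percentage points. Its relative Ppp3cb was a DEG lower in IVO, with 8.46, 4.76 and 7.47 FPKM in IVM against 3.70, 1.98 and 2.98 FPKM in IVO pools (log2FC -1.02, standard error 0.29, adjusted p = 0.0422 from limma), a call that median-ratio scaling ended (log2FC -0.75, adjusted p = 0.0857). Ppp3cc had 1.83, 0.53 and 0.98 FPKM in IVM against 0.56, 0.67 and 0.24 FPKM in IVO pools. Atp2b1 had 72.2%, 58.9% and 68.7% of the plasma membrane pump genes in IVM and 77.6%, 88.2% and 83.7% in IVO samples, a difference of 16.6 points. Atp2b4, another plasma membrane pump, had 18.3, 30.3 and 23.3 FPKM in IVM against 15.6, 5.92 and 10.4 FPKM in IVO pools, just short of the threshold (log2FC -1.16, adjusted p = 0.0539 from limma).

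The other two were families of low level. Trpv3 had 72.5% to 87.7% of the 6 TRPV genes in IVM and 90.2% to 98.6% in IVO samples, next to Trpv2 at 1.51, 0.80 and 0.89 FPKM in IVM against 0.07, 0.16 and 0.16 FPKM in IVO pools. Orai1 had 30.7% to 42.6% of the ORAI genes in IVM and 51.3% to 64.5% in IVO samples, next to Orai3 at 1.35, 0.69 and 1.08 FPKM in IVM against 0.33, 0.73 and 0.41 FPKM in IVO pools. For each of the 4 shares a two-sided exact permutation of the 6 pools gave p = 0.1, the smallest value this design allows, and 0.25 after Benjamini-Hochberg adjustment over the 10 families, so none passed a threshold of 0.05. The other 6 families overlapped between the groups, with exact permutation p-values from 0.2 to 0.5.

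**Figure D3:**
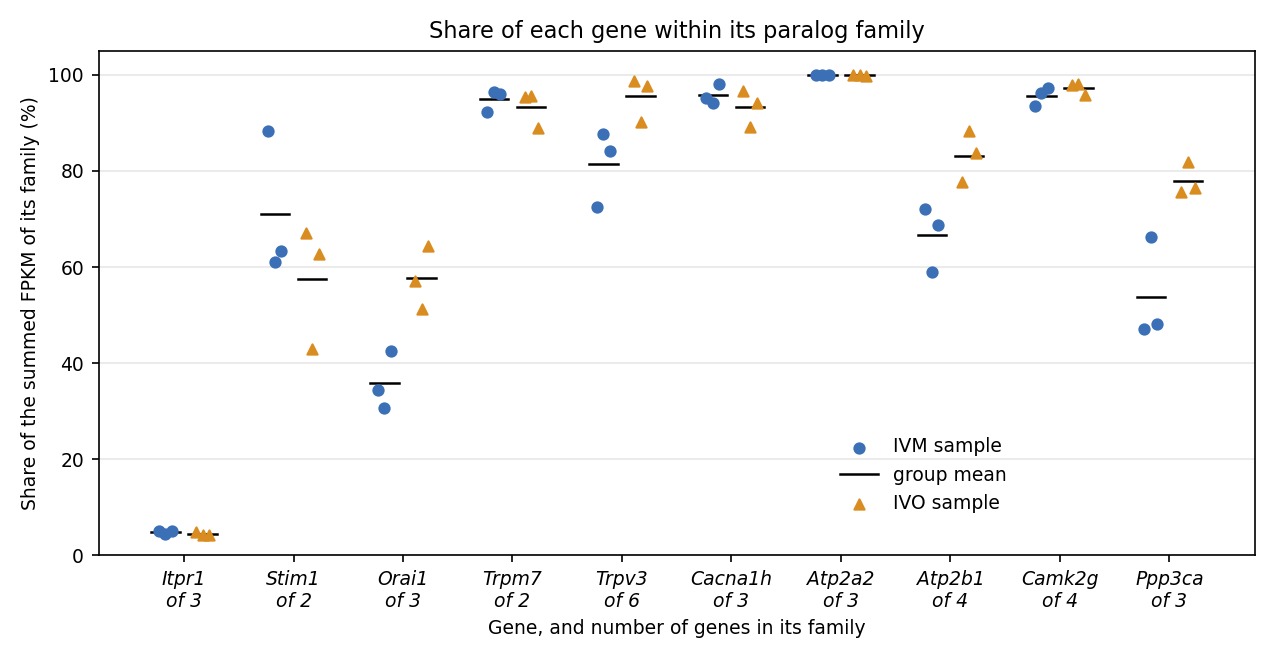
Share (%) of each member in the summed FPKM of its paralog family, in the 3 IVM (circles) and 3 IVO (triangles) samples, with the group mean as a bar and the number of genes in the family under each name. Itpr1 stays between 4.14% and 5.15%, while the shares of Ppp3ca, Atp2b1, Trpv3 and Orai1 are higher in all IVO than in all IVM samples.

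A further 97 genes of egg calcium signaling were taken from a list by function, of which 54 were tested. Lower-in-IVO DEGs numbered 8 of these (14.8%) and higher-in-IVO DEGs 0, next to 17.9% and 0.606% of all tested genes. At an unadjusted p-value under 0.05 in limma 17 were lower and 2 were higher, where the all-gene shares were again 31.4% and 5.56%. The median log2FC of the 54 genes was -0.26. With median-ratio scaling 6 were lower and 1 was higher, next to 11.2% and 2.09% of all tested genes. Without IVM replicate 1 as few as 5 were lower, where 2276 of all 18818 tested genes were.

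Calmodulin and the enzymes it activates held 3 of these DEGs among 9 tested genes, and 2 with median-ratio scaling. Over all tested genes the shares of DEGs lower in IVO were 17.9% and 11.2%. Calm2 had 561, 457 and 357 FPKM in IVM against 114, 136 and 86.8 FPKM in IVO pools (log2FC -2.02, standard error 0.24, adjusted p = 0.00252 from limma). Processed copies of Calm2 exist in the genome, so its reads may be split among near-identical sequences and its values are uncertain. Mylk, the myosin light chain kinase, had 124, 213 and 110.0 FPKM in IVM against 42.5, 54.0 and 53.5 FPKM in IVO pools (log2FC -1.5, adjusted p = 0.00999 from limma). Fbxo43 (EMI2), the arrest factor that CaMKII acts on, had 32.1 ± 6.20 FPKM in IVM against 31.7 ± 1.49 FPKM in IVO pools (SD, n = 3 each), and Wee2, a further CaMKII substrate in eggs, 190 ± 17.2 and 202 ± 3.14 FPKM. Neither was called.

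On the ER side, Ryr2, a ryanodine receptor, was a DEG lower in IVO, with 151, 86.8 and 113 FPKM in IVM against 35.5, 58.65 and 25.2 FPKM in IVO pools (log2FC -1.58, standard error 0.35, adjusted p = 0.0178 from limma). Of the 5 tested release genes it was the only DEG, and Itpr2 had a log2FC of 0.23 (adjusted p = 0.488). Of 6 genes for calcium-binding ER and Golgi proteins, Sdf4, a calcium-binding protein of the Golgi, was a DEG lower in IVO (log2FC -2.05, adjusted p = 0.00452 from limma). Canx, the chaperone calnexin and the highest of that group, had 73.0 ± 8.70 FPKM in IVM against 88.9 ± 9.47 FPKM in IVO pools (SD, n = 3 each), which overlapped. Tmco1, which encodes a calcium leak channel of the ER, had 133 ± 3.14 FPKM in IVM against 69.4 ± 0.758 FPKM in IVO pools (SD, n = 3 each), and its log2FC of -0.93 passed the p-value threshold (adjusted p = 0.00680 from limma) but not the fold. Saraf, which damps store-operated entry, had a log2FC of -0.23 (adjusted p = 0.415).

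Of 6 tested genes for IP3 production, Plcd4, a phospholipase C of the delta class, was a DEG lower in IVO, with 90.0, 95.1 and 109 FPKM in IVM against 38.8, 40.7 and 30.3 FPKM in IVO pools (log2FC -1.40, standard error 0.19, adjusted p = 0.00396 from limma). Of 2 tested genes for IP3 removal neither was a DEG. Inpp5a, an IP3 phosphatase, had 13.9 ± 4.67 FPKM in IVM against 16.4 ± 9.59 FPKM in IVO pools (SD, n = 3 each). Slc8a3, a sodium-calcium exchanger, was a DEG lower in IVO among 3 tested extrusion genes (log2FC -1.11, adjusted p = 0.0199 from limma) and lost the call with median-ratio scaling (adjusted p = 0.0727). Smdt1 (EMRE), a small subunit that the mitochondrial calcium uniporter needs, was the single DEG of 11 tested mitochondrial genes, lower in IVO (log2FC -1.73, standard error 0.25, adjusted p = 0.00447 from limma). Its pore-forming partner Mcu had 78.3 ± 16.9 FPKM in IVM against 70.1 ± 8.12 FPKM in IVO pools (SD, n = 3 each). Vdac3, the highest of the mitochondrial genes, had a log2FC of -0.15 (adjusted p = 0.735). Among 6 tested protein kinase C genes none was a DEG, and the highest, Prkcz, had a log2FC of -1.04 (adjusted p = 0.0531 from limma). None of the 11 other plasma membrane channels of the list reached the mean of 1 FPKM needed for the test.

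**Figure D4:**
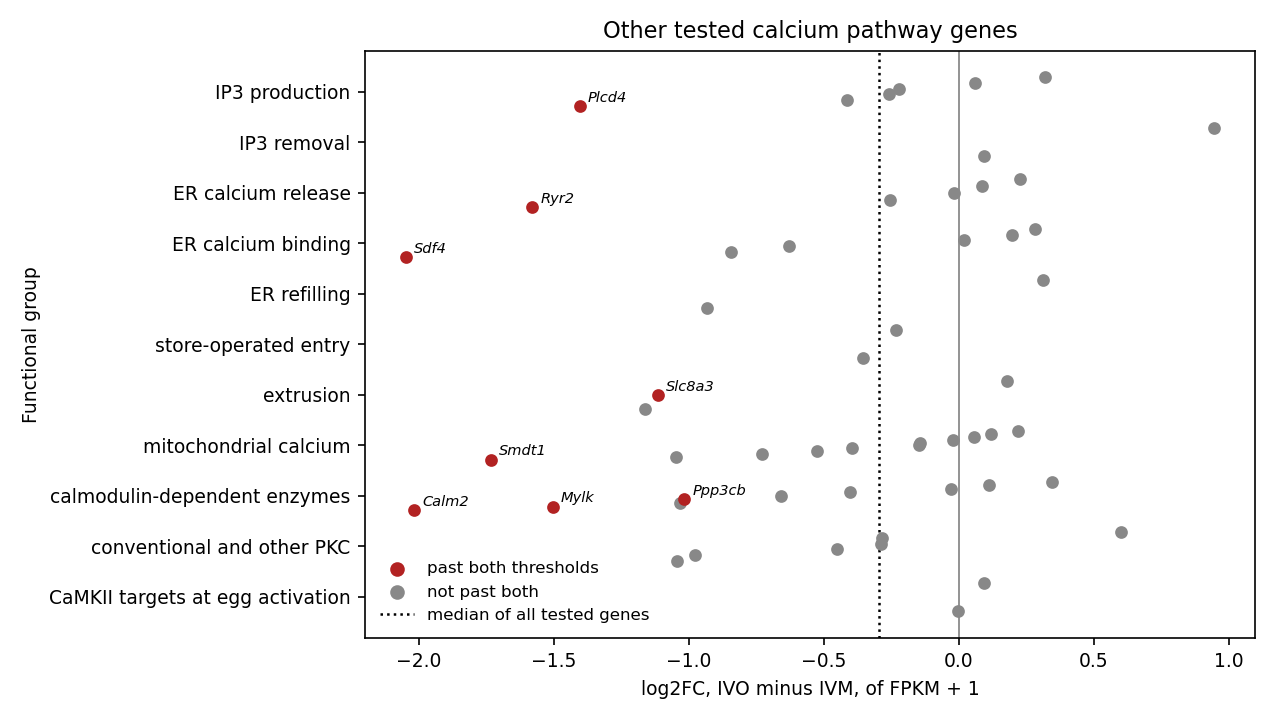
The log2FC (IVO minus IVM, of FPKM + 1) of the 54 tested genes of the wider calcium list, by functional group, with the 8 DEGs in red and named. The dotted line marks the median of all tested genes (-0.30), and all 8 DEGs lie left of it, between -2.05 (Sdf4) and -1.02 (Ppp3cb).

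Genes whose pattern over the 6 samples was most like that of Itpr1, out of 13153 Ensembl genes compared, included Zbed4 and Rhpn2. Likeness was the distance between mean-centered log2(FPKM + 1) values, which was 0.06 for Zbed4 and 0.12 for Rhpn2, next to a median of 0.97 over the genes compared. Zbed4 had 3.88, 4.98 and 6.02 FPKM in IVM against 5.18, 5.05 and 5.26 FPKM in IVO pools. With so many genes and 6 samples, close matches arise easily, and the distances are given as a description.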

How the data were processed

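Libraries were made from full-length cDNA (SMART-Seq v4, primed on poly(A) tails, without strand) with the Nextera XT kit. Transcript amount and tail length therefore cannot be told apart. Per the study's methods and the submitters' processing notes, trimmed reads went through HISAT2 2.1.0 (GRCm39) and RSEM 1.3.3, and the authors deposited the resulting FPKM per gene and sample. The deposited group means and annotation columns were not used.

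The study tested counts with DESeq2, which FPKM do not allow. Here, limma 3.58.1 (R 4.3.3; lmFit, eBayes with trend) was fitted to log2(FPKM + 1) of 18818 genes whose mean reached 1 FPKM, with group as the only term, and tested on simulated data. P-values are two-sided and Benjamini-Hochberg adjusted over all tested genes. Members were matched by gene name and Ensembl identifier, and 1 list gene (Irag2) by identifier alone. Coordinates and exon overlaps are those of GENCODE on GRCm39. Depth was inferred from 500- to 1500-base genes with 1 transcript, for values worth under 5.5 fragments, of which 79.7% to 83.3% per library came within 0.2 of a whole number. It covers counting error only. The sources used here do not tie same-numbered pools of the groups to each other, and p-values measure only the spread between pools. The smallest p-value of an exact permutation test of 3 against 3 samples is 0.1.

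The members and lists were chosen with earlier results of these data known. The text names all members, their paralogs, and from each functional group of the list its highest tested gene and up to 4 DEGs. Mcu, Fbxo43, Has2, Ptgs2, Ptx3, Tnfaip6, Cyp19a1 and Kitl were named in addition, after their values were seen. Some genes that the rule names are not reported here. Alternatives were the pseudocount, the filter, 3 scalings, eBayes without trend, Ensembl genes only, removal of the length trend by lowess (span 0.3), the replicate number as a factor, and leaving out each sample. Python 3.11.15 and pandas 2.3.3 wrote the tables.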

Additional observations from a re-analysis of the deposited data

How the results depend on the processing

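The number of DEGs lower in IVO over all tested genes was 3366 and fell to 2106 with median-ratio scaling, 1579 with quantile normalization, 2131 with scaling to the same sum and 1972 with Ensembl genes only, while DEGs higher in IVO went from 114 to 393, 1096 and 394 with the 3 scalings and to 184 with the length trend removed. The members held 1 DEG, and 0 without a filter, with a mean of at least 5 FPKM (where Cacna1h is not tested) and with each of the 3 scalings, 2 (Cacna1h and Stim1) with the length trend removed, and 0 to 1 when a pool was left out. The calcium list, with 54 tested genes, held 8 DEGs lower in IVO, next to 3366 of all 18818 tested genes. It held 3 with quantile normalization (1579 over all genes) and 14 with the length trend removed (3079 over all genes). When a pool was left out it held 5 to 8 (2276 to 3174 over all genes), with 5 without IVM replicate 1. Its DEGs higher in IVO went from 0 to 1 with a pseudocount of 0.1, with median-ratio and with same-sum scaling, to 2 with quantile normalization, and to 0 to 1 when a pool was left out. Over all genes DEGs higher in IVO numbered 138 with a pseudocount of 0.1 and 82 to 130 when a pool was left out. The median log2FC of the members, -0.31, was -0.11 without a filter, 0.091 with a mean of at least 5 FPKM, -0.024 with median-ratio scaling, 0.18 with quantile normalization, -0.013 with same-sum scaling, -0.53 with the length trend removed, and -0.45 to 0.11 when a pool was left out. The log2FC of Itpr1 turned to -0.12 with the length trend removed and ran from -0.029 to 0.22 over the pools left out. With quantile normalization Trpm7 turned to 0.18, Trpv3 to 0.16 and Atp2a2 to 0.0100. On that scale Atp2b1 (log2FC 0.76, adjusted p = 0.0205 from limma) and Ppp3ca (log2FC 0.86, adjusted p = 0.0263) passed the p-value threshold but not the fold. So did 2784 of all 18818 tested genes pass the p-value threshold in this direction, and 2018 in the other. With a pool left out Trpv3 ran from -0.62 to 0.17 and Camk2g from -0.0053 to 0.47. Over its alternatives the adjusted p of Cacna1h in limma ran from 0.0230 to 0.125, and its log2FC from -2.25 to -0.74. The scalings and the filters differ by construction in what they center and how many genes they test, and beyond that the cause was not tested.

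Same-numbered pools did not deviate together across genes (r = -0.062, -0.018 and -0.11). With so few pools per group, these values cannot decide whether the numbers pair the pools, which is not known. With the replicate block, 2899 genes were DEGs lower and 92 higher in IVO, the members held 1 (Stim1, adjusted p = 0.0172 from limma, with Cacna1h at 0.0698), and the calcium list held 9 lower and 0 higher.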

Other observations

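Of 54 tested genes of the wider calcium list, 2 passed the adjusted p-value in the higher direction, next to 1.87% of all tested genes. In the lower direction 12 passed it, 8 of them DEGs, next to 21.5% of all tested genes. Neither of the 2 higher genes reached the fold threshold, and they are named after their values were seen. This count of 2 (351 over all tested genes) was 3 with median-ratio scaling (1353 over all) and 6 with quantile normalization (2784). It stayed 2 with same-sum scaling (1083). It was 1 without a filter (255 of 32852) and 1 with eBayes without trend (289). With the replicate block (118) or the length trend removed (391) it was 0. It was 0 in 5 of the 6 fits that each left out a pool, and 1 without IVM replicate 1. Over all tested genes those 6 fits gave 109 to 288. Inpp5b, an inositol polyphosphate phosphatase, measured 12.3, 6.90 and 7.43 FPKM in the IVM pools against 15.9, 17.9 and 18.9 FPKM in the IVO pools (log2FC 0.95, adjusted p = 0.0350 from limma). It became a DEG with median-ratio scaling (log2FC 1.25, adjusted p = 0.0200). Prkci, an atypical protein kinase C, measured 32.1, 32.3 and 29.5 FPKM against 49.3, 44.0 and 50.9 FPKM (log2FC 0.60, adjusted p = 0.0430). In the lower direction Hspa5, the ER chaperone BiP, measured 38.9, 32.4 and 42.8 FPKM against 23.65, 24.1 and 15.3 FPKM (log2FC -0.84, adjusted p = 0.0429), also short of the fold.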
